A study of Mus musculus with 9 samples.

Results

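The response of old sensory ganglia to nerve injury was followed through 4 classes of genes: transcription factors, receptors, ion channels and secreted factors. The comparison set 3 libraries of aged mice taken 24 h after injury of the sciatic nerve against 3 libraries of aged mice taken 24 h after sham surgery, 6 of the 9 libraries measured. All mice were C57BL/6; aged mice were 20 to 22 months old, and the 3 remaining libraries came from young mice of 8 to 10 weeks after sham surgery. Each library held the dorsal root ganglia of the sciatic nerve from 2 mice, taken whole, so neurons, glia, vessels and blood cells could contribute to every value. The labels do not give the kind of nerve injury or its side. Levels are given in FPKM, the sequenced fragments per kilobase of a gene after scaling to library depth. Of 45904 identifiers, 16202 lay on chromosomes 1 to 19 with a mean level over the 9 libraries of 0.2 FPKM or more and were tested, and 1643 of these matched the name patterns of the 4 classes.

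Dorsal root ganglia hold the cell bodies of sensory neurons, each wrapped by satellite glia. When the peripheral axon is damaged, signals travel back to the cell body and switch on transcription factors such as Atf3 and Jun, which are known as parts of the regeneration program of these neurons. The neurons also change the peptides and growth factors they release and the receptors and channels that set their excitability.

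Aged sham replicate 1 stood apart in sex-linked genes and in injury genes. Xist, the RNA that silences an X chromosome in females, was at 1.75 FPKM there and at 9.77 to 13.1 FPKM in the other 5 aged libraries. Ddx3y, on the Y chromosome, was at 10.9 FPKM there and at most 0.0133 FPKM in those 5. The 3 young sham libraries were unlike those 5 as well, with Ddx3y at 13.8 to 15.7 FPKM and Xist at 0.02 FPKM or less, so a difference between young and aged libraries cannot be told apart from one between sexes. A difference between sexes and one between aged sham replicate 1 and the others cannot be told apart, and only autosomal genes were tested. Among the 70 class members called higher after injury, aged sham replicate 1 was the sham library nearest to the injury group for 42. Sham replicates 2 and 3 were nearest for 16 and 12. The rises were uneven by class, with replicate 1 nearest for 10 of 23 transcription factors and 12 of 17 receptors. It was nearest for 4 of 8 channels and 16 of 22 secreted factors. This was not particular to the class rises. Replicate 1 was nearest for 33 of the 54 class members called lower and 231 of all 446 genes called higher. Over all genes called lower it was also nearest more often than either other sham library. Results are therefore given with and without aged sham replicate 1. By the FPKM worth of 1 read, the injury libraries had relative depths of 1.23, 1.04 and 0.946 and the aged sham libraries 0.976, 0.846 and 0.977, with young sham replicate 1 at 1; absolute depth is unknown.

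After injury 446 genes were higher and 312 lower, 758 in all (limma on log2(FPKM + 0.1), adjusted p under 0.05 over all genes tested), which was 4.68% of all genes, 2.75% higher and 1.93% lower. Without aged sham replicate 1 there were 633 (3.91%), of which 505 were shared. Without sham replicates 2 or 3 there were 308 or 214, without injury replicates 1, 2 or 3 there were 200, 417 or 243, and without young sham replicate 1 there were 486. In each of the 758 genes the 3 injury libraries lay all above or all below the 3 aged sham libraries, as they also did in 4263 genes (26.3%) in all. The median log2 change over all genes was -0.01. All p-values reflect the spread between pools of mice within the groups, taken over all 9 libraries, so the young sham pools are included. In whole ganglia, fewer cells of a type and less RNA per cell cannot be told apart.

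**Figure D1:**
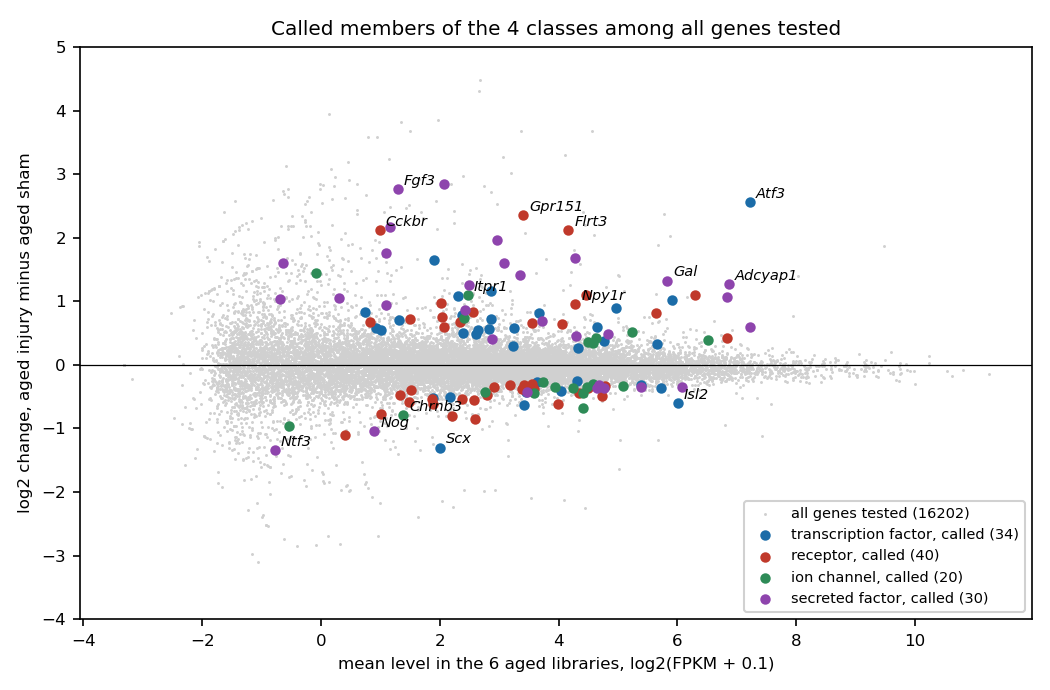
Log2 change after injury, aged injury minus aged sham, against the mean level in the 6 aged libraries, for the 16202 genes tested (grey) and the 124 called members of the 4 classes (coloured). Atf3 lies far to the right among the risers, Fgf3 rose at a low level, and most falls are smaller than the largest rises.

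Of the 1643 class members, 124 were called, 70 higher and 54 lower. The share was 7.78% of 437 transcription factors (23 higher, 11 lower), 8.83% of 453 receptors (17 higher, 23 lower), 7.78% of 257 ion channels (8 higher, 12 lower) and 6.05% of 496 secreted factors (22 higher, 8 lower), beside 4.68% of all genes. Receptors called turned to more rises than falls with the 6 aged libraries alone (14 higher, 12 lower), with replicate number as a block (13 and 8), and without sham replicates 2 or 3 (11 and 8, 8 and 7) or injury replicates 1, 2 or 3 (8 and 6, 13 and 12, 9 and 8). Channels turned likewise with the block (5 and 4), without sham replicate 2 (6 and 3) and without injury replicates 1 or 3 (4 and 3, 5 and 1). With the 6 aged libraries alone, 390 of the 758 called genes still passed. They held 21 of the 34 transcription factors, 25 of the 40 receptors, 11 of the 20 channels and 19 of the 30 secreted factors. Among those that did not pass were Atf3, Sox11, Gal, Fgf3, Areg, Gpr151 and Cckbr. The median log2 change of the classes was 0.03, -0.01, -0.08 and 0.02 in this order.

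**Figure D2:**
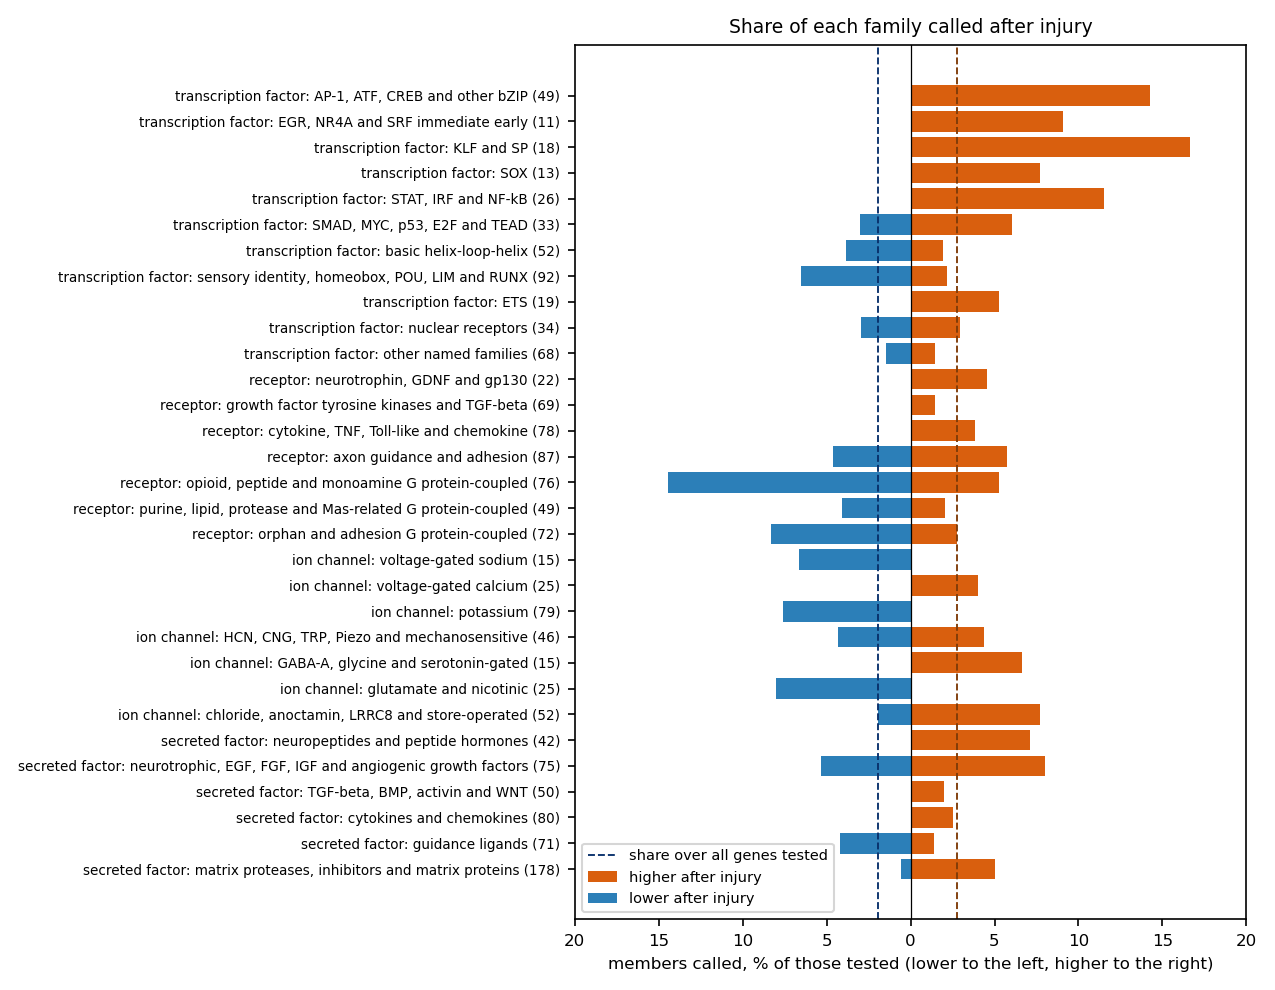
Share of the tested members of each family called lower (left) and higher (right) after injury, with the number tested in brackets and dashed lines at the shares over all genes, 1.93% and 2.75%. Families without a called member are left out; the bars of the bZIP and the KLF and SP families point only to higher levels, that of the potassium channels only to lower ones.

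Of 49 tested members of the bZIP family, which holds the AP-1, ATF and CREB factors, 7 rose and 0 fell (14.3% higher, beside 2.75% of all genes), with a median log2 change of 0.20. Atf3, a bZIP factor used as a marker of axon injury, was at 95.6, 27.1 and 27.3 FPKM in sham replicates 1, 2 and 3 of the aged mice and at 278, 192 and 271 FPKM after injury. All injury libraries lay above all sham libraries, and sham replicate 1 was several times above the other two and above the young sham libraries (16.3 to 42.3 FPKM). It rose with a log2 change of 2.55 (limma adjusted p = 0.0207, SE 0.49), and by 3.16 without sham replicate 1. Its call was kept in 2 of the 6 fits that each left out 1 aged library, and was lost in the fit of the 6 aged libraries alone. Jun, the AP-1 partner needed for axon regrowth, was at 43.3, 37 and 37.8 FPKM in sham and 87, 67.7 and 85.4 FPKM after injury. It rose with a log2 change of 1.02 (limma adjusted p = 0.0135, SE 0.17), kept in 2 of 6 fits. Nfil3, a bZIP repressor, went from 5.71, 3.81 and 3.79 FPKM to 9.53, 9.36 and 10.8 FPKM and rose with a log2 change of 1.16 (limma adjusted p = 0.0109, SE 0.18), kept in 4 of 6.

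The other bZIP factors that rose, named after their values were seen, changed less. Fosl2, an AP-1 subunit of the Fos family, rose by 0.78 on the log2 scale, from 3.6, 3.87 and 3.71 FPKM to 7.09, 6.37 and 6.01 FPKM, and was kept in all 6 fits. Crem, a cAMP-responsive factor, rose by 0.71, Bach1, a repressor of oxidative stress genes, by 0.54, and Creb1, the cAMP response factor, by 0.48, kept in 2, 5 and 0 of 6 fits. Fos, the immediate early partner of Jun, was at 1.65, 3.05 and 2.81 FPKM in sham and 2.61, 3.32 and 2.93 FPKM after injury, with overlapping groups (limma adjusted p = 0.551). Ddit3 (log2 change 0.27) and Cebpd (0.70), bZIP factors of the stress response, did not pass either (limma adjusted p = 0.161 and 0.143), although the Cebpd levels of 7.7 to 10.7 FPKM in sham and 13.2 to 15.5 FPKM after injury did not overlap.

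Of 18 KLF and SP factors 3 rose and 0 fell (16.7% higher, beside 2.75% of all genes). Klf6, which promotes axon growth, was at 24.4, 21.6 and 19.7 FPKM in sham and 41.6, 38.2 and 42.3 FPKM after injury and rose with a log2 change of 0.90 (limma adjusted p = 0.00372, SE 0.083), kept in all 6 fits. The sham and injury libraries were well separated and aged sham replicate 1 was close to the other two. Klf7, a second KLF factor linked to axon growth, rose by 0.38 on the log2 scale (kept in 2 of 6). Klf4 and Klf9, known to restrain axon growth, had log2 changes of 0.34 and 0.31 and did not pass (limma adjusted p = 0.14 and 0.0641).

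Sox11, a transcription factor active in developing and regenerating neurons, was at 3.16, 1.34 and 1.04 FPKM in the aged sham libraries and 6.18, 4.24 and 5.97 FPKM after injury, with sham replicate 1 the nearest to the injury group. It rose with a log2 change of 1.65 (limma adjusted p = 0.0341, SE 0.36), and by 2.10 without sham replicate 1, but was kept in only 1 of 6 fits. Sox4, from the same subgroup, was at 1.98, 1.5 and 1.49 FPKM in sham and 1.2, 1.17 and 1.12 FPKM after injury (log2 change -0.46, limma adjusted p = 0.0989). Smad1, which carries bone morphogenetic protein signals, rose from 7.56, 7.35 and 7.64 FPKM to 11.2, 11 and 11.7 FPKM with a log2 change of 0.58 (limma adjusted p = 0.00372, SE 0.064), and the injury libraries lay well above a narrow sham range. Its relative Smad9 fell by 0.43 on the log2 scale, from 11.3, 13.5 and 12.6 FPKM to 9.42, 9.45 and 8.79 FPKM, kept in 2 of 6 fits.

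Bhlhe41, a repressor of the circadian clock, had the smallest adjusted p of the class. It was at 8.99, 8.92 and 9.59 FPKM in sham and 17, 15.2 and 16.3 FPKM after injury and rose with a log2 change of 0.81 (limma adjusted p = 0.00323, SE 0.067), kept in all 6 fits. Myc, a driver of cell growth, rose by 0.57 on the log2 scale, from 5.6, 5.58 and 5.66 FPKM to 8.95, 7.54 and 8.67 FPKM, also kept in all 6. Ets2, an effector of Ras signalling named after its values were seen, rose by 0.73, from 5.38, 5.27 and 5.41 FPKM to 9.59, 8.21 and 9.02 FPKM, kept in all 6. Csrnp1, a nuclear protein induced as an immediate early gene, rose by 1.08 and the homeodomain repressor Tgif1 by 0.82, kept in 2 and 3 of 6. Of 26 STAT, IRF and NF-kB factors 3 rose (11.5%, beside 2.75% higher over all genes). Stat3, which carries signals of gp130 cytokines, rose by 0.32 (kept in 0 of 6). Stat2 and Irf9, both of the interferon response and named after their values were seen, rose by 0.59 and 0.50, kept in 2 and 0 of 6. Of 11 immediate early factors of the EGR, NR4A and SRF list, Csrnp1 alone passed (9.09% higher, beside 2.75% of all genes). Egr1 and Nr4a1 had log2 changes of 0.01 and -0.12.

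Of 92 factors of sensory identity, homeobox, POU, LIM and RUNX type, 6 fell and 2 rose (6.52% lower, beside 1.93% of all genes). Isl2, a LIM homeodomain factor of sensory neurons, was at 81.4, 73.4 and 77.4 FPKM in sham and 54.7, 50.4 and 47.6 FPKM after injury. No injury library reached the sham range, and it fell with a log2 change of -0.60 (limma adjusted p = 0.00907, SE 0.091), kept in all 6 fits. Pou4f3, a POU factor of sensory neurons, fell by 0.63 on the log2 scale, from 11.3, 13.7 and 13.9 FPKM to 8.58, 8.44 and 7.81 FPKM, also kept in all 6. Prdm12, a regulator needed for pain-sensing neurons, fell by 0.36, from 57.5, 58.3 and 63.1 FPKM to 48.4, 47.6 and 43.2 FPKM (kept in 4 of 6), and Isl1 by 0.26, from 22.6, 20.6 and 21.1 FPKM to 17.9, 18 and 17.8 FPKM (kept in 0 of 6). Hoxb6 and Hoxb8, which mark position along the body axis, fell by 0.52 and 0.50, each kept in 1 of 6. Pou4f1, at 42.3, 41.9 and 43.4 FPKM in sham and 43.5, 38.5 and 40.4 FPKM after injury, and Runx1, at 7.02, 8.72 and 7.67 FPKM in sham and 8.4, 9.16 and 7.18 FPKM after injury, both specifiers of sensory neurons, overlapped between the groups and did not pass (limma adjusted p = 0.592 and 0.735).

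Scx, a basic helix-loop-helix factor known from tendon, had the largest fall of the class. It was at 4.65, 6.16 and 5.95 FPKM in sham and 2.62, 2.18 and 1.83 FPKM after injury, with a log2 change of -1.30 (limma adjusted p = 0.00414, SE 0.16), kept in all 6 fits. Esrra, a nuclear receptor that drives mitochondrial genes, fell by 0.40 on the log2 scale (kept in 4 of 6). None of 22 forkhead factors passed, beside 4.68% called over all genes. Of the 22, 5 had an unadjusted limma p under 0.05, beside 3356 of all 16202 genes. Without aged sham replicate 1 limma called 2 lower. Without aged sham replicate 1, 30 transcription factors were called, 19 higher and 11 lower, of which 26 were among the 34. The count was 14 or 11 without sham replicates 2 or 3, and 12, 22 or 11 without injury replicates 1, 2 or 3.

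**Figure D3:**
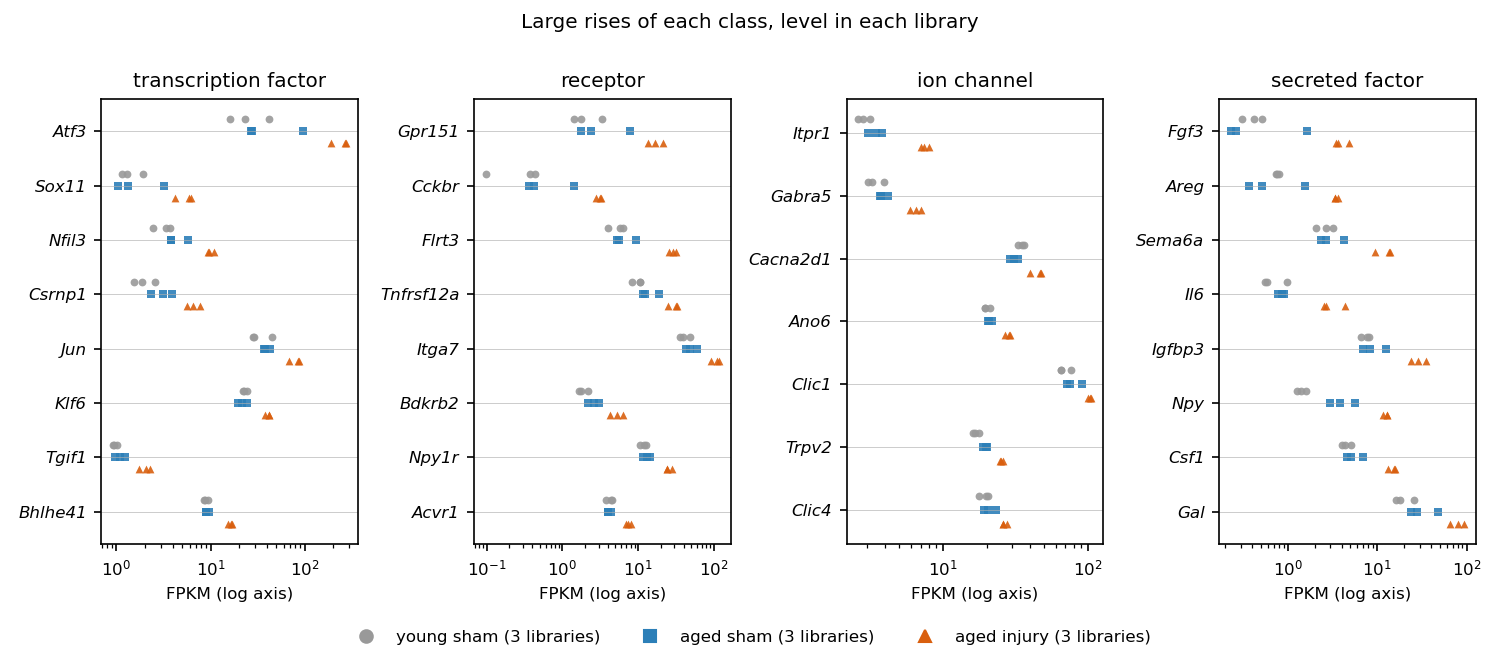
FPKM in each of the 9 libraries (log axis) for 8 of the largest rises of each class, or 7 for the ion channels, among called genes whose mean level in the aged libraries was 1 FPKM or more. The 3 aged injury libraries (triangles) lie above the 3 aged sham libraries (squares) in every gene shown. For Atf3, Sox11, Gpr151, Cckbr, Fgf3 and Areg 1 square, sham replicate 1, lies apart from the other 2 towards the triangles.

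The start regions of the genes were searched for letters that bZIP and STAT factors are known to bind. The windows came from RefSeq on build GRCm38.p6. Each ran from 250 bases before to 50 bases after the RefSeq start nearest to the annotated start of the gene. No limit was set on the distance between these starts. Windows were at hand for 11080 of 13618 protein-coding genes searched. The AP-1 letters TGANTCA, where N is any base, were in 29 of 338 genes called higher (8.58%), in 5 of the 56 class members called higher (8.93%) and in 4.94% of all. The cAMP response element TGACGTCA was in 11 of the 338 (3.25%), in 3 of the 56 (5.36%) and in 3.15% of all. The STAT letters TTCNNNGAA were in 9.76%, 5.36% and 6.85%. Both strands were searched, and each motif was counted by itself, also where matches overlap. Windows were found for only 78.7% of the genes called lower, so the check is void for them. The 250 bases before the RefSeq start are shown for Atf3, the transcription factor with the largest rise. They are also shown for Areg and Il6, chosen after their matches were seen, with the matched letters in capitals. The Atf3 window lies inside the annotated gene, which spans 191170296 to 191218039 on the minus strand. The annotated start of Atf3, at 191218039, was therefore not searched. Areg holds the cAMP response element 61 bases before its start and Il6 the AP-1 letters 249 bases before its start, while the full 300-base windows of Atf3, Fgf3 and Gal hold none of the 3 motifs. No match says only that these letters are not in the window, and a match is not shown to be a bound site.
Atf3 (chr1:191183334-191183583, minus strand): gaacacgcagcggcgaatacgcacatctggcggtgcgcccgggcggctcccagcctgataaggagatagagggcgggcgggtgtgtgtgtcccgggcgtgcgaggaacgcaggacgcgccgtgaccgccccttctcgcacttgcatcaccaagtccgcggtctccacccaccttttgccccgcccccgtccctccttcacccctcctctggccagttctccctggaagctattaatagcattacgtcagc
Areg (chr5:91139349-91139598, plus strand): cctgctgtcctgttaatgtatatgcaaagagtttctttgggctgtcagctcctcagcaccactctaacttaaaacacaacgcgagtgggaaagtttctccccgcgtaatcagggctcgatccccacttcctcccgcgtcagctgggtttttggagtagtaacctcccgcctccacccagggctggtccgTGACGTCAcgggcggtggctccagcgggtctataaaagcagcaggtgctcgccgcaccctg
Il6 (chr5:30012864-30013113, plus strand): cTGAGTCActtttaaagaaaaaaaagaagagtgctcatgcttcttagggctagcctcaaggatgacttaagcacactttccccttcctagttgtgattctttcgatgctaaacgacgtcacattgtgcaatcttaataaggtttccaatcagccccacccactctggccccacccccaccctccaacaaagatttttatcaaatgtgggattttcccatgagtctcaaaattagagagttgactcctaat

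Of the 496 secreted factors, 22 rose and 8 fell. Of 42 neuropeptides and peptide hormones, 3 rose and 0 fell (7.14% higher, beside 2.75% of all genes). Npy, a peptide that large sensory neurons take up making after injury, was at 5.63, 3.01 and 3.84 FPKM in the aged sham libraries and 13, 11.7 and 12.8 FPKM after injury. The injury libraries were alike and well above the sham libraries, which lay above the young sham libraries at 1.28 to 1.61 FPKM. Npy rose with a log2 change of 1.61 (limma adjusted p = 0.00394, SE 0.19), kept in all 6 fits, and by 1.85 without sham replicate 1. Gal, the peptide galanin, was at 47.6, 27.7 and 23.9 FPKM in sham and 93.7, 65.3 and 81.2 FPKM after injury and rose with a log2 change of 1.32 (limma adjusted p = 0.0231, SE 0.26). Sham replicate 1 was the highest sham library, the log2 change was 1.62 without it, and the call was kept in 2 of 6 fits. Adcyap1, which encodes the peptide PACAP, was at 86.1, 62.6 and 57.8 FPKM in sham and 164, 155 and 171 FPKM after injury and rose with a log2 change of 1.27 (limma adjusted p = 0.00443, SE 0.16), kept in all 6.

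The peptides typical of intact pain-sensing neurons did not pass. Calca, the gene of calcitonin gene-related peptide, was at 1226, 987 and 950.1 FPKM in sham and 922, 953 and 1059 FPKM after injury, and the groups overlapped. Tac1, the gene of substance P, had a log2 change of -0.27, Sst, somatostatin, of -0.23, Nts, neurotensin, of -0.23, and Nppb, a peptide of itch neurons, of 0.16; none passed (limma adjusted p = 0.62 for Calca and 0.215, 0.765, 0.593 and 0.577). Cck, cholecystokinin, was near the filter at 0.131 to 0.34 FPKM in sham and 0.181 to 0.351 FPKM after injury and did not pass. Vip, a peptide known to be induced by axon injury, was below the filter and was not tested.

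Of 75 growth factors and their binding proteins, 6 rose and 4 fell (8% higher and 5.33% lower, beside 2.75% and 1.93% of all genes). Fgf3, a fibroblast growth factor, was at 1.64, 0.231 and 0.267 FPKM in sham and 4.87, 3.61 and 3.48 FPKM after injury. Sham replicate 1 stood several times above the other two sham libraries and all young ones, and the call, with a log2 change of 2.76 (limma adjusted p = 0.0235, SE 0.54), was kept in 1 of 6 fits; without that library the change was 3.54. Areg, a ligand of the epidermal growth factor receptor, was at 1.55, 0.374 and 0.518 FPKM in sham and 3.61, 3.35 and 3.34 FPKM after injury, again with sham replicate 1 as the highest sham library. It rose with a log2 change of 2.17 (limma adjusted p = 0.0148, SE 0.38), kept in 3 of 6. Its receptor gene Egfr, looked at after the values were seen, had a log2 change of 0.51 and did not pass (limma adjusted p = 0.255).

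Igfbp3, which binds insulin-like growth factors, was at 12.4, 8.36 and 6.87 FPKM in sham and 35, 24.1 and 28.8 FPKM after injury and rose with a log2 change of 1.69 (limma adjusted p = 0.00426, SE 0.21), kept in all 6 fits. Fst, follistatin, which binds activins, rose by 1.25 on the log2 scale, from 4.72, 2.69 and 2.49 FPKM to 9.38, 6.9 and 7.03 FPKM, kept in 3 of 6. Bdnf, the neurotrophin brain-derived neurotrophic factor, was at 11.8, 9.85 and 8.36 FPKM in sham and 16.9, 14.8 and 16.7 FPKM after injury and rose with a log2 change of 0.69 (limma adjusted p = 0.0395, SE 0.16), kept in 1 of 6. Ntf3, the neurotrophin that supports position-sensing neurons, went the other way, from 0.817, 0.565 and 0.816 FPKM to 0.217, 0.307 and 0.169 FPKM, with a log2 change of -1.34 (limma adjusted p = 0.0169, SE 0.24), kept in 3 of 6. The receptor genes of these 2 neurotrophins did not pass, Ntrk2 with a log2 change of -0.02 and Ntrk3 with -0.08 (limma adjusted p = 0.887 and 0.772). Nog, noggin, which binds bone morphogenetic proteins, fell from 2.02, 2.98 and 2.22 FPKM to 1.19, 1.22 and 0.917 FPKM, by 1.04 on the log2 scale, kept in 2 of 6. Nrg1, a neuregulin that signals from axons to Schwann cells, fell by 0.32, from 27.4, 28.1 and 29.3 FPKM to 22.4, 22.6 and 22.9 FPKM, kept in 5 of 6, and Ptn, pleiotrophin, by 0.34, kept in 1 of 6.

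Of 80 cytokines and chemokines, 2 rose and 0 fell (2.5%, beside 2.75% higher over all genes). Csf1, the growth factor of macrophages and microglia, was at 7, 4.57 and 5.11 FPKM in sham and 15.8, 13.1 and 15.3 FPKM after injury. The groups were far apart and it rose with a log2 change of 1.41 (limma adjusted p = 0.00372, SE 0.15), kept in all 6 fits. Il6, a gp130 cytokine made by injured sensory neurons, was at 0.858, 0.907 and 0.786 FPKM in sham and 2.68, 2.55 and 4.42 FPKM after injury, with injury replicate 3 the highest, and rose with a log2 change of 1.76 (limma adjusted p = 0.00732, SE 0.25), kept in all 6. Ccl2, a chemokine that draws monocytes, was at 3.89, 2.76 and 2.39 FPKM in sham and 3.1, 2.76 and 3.66 FPKM after injury and Lif, another gp130 cytokine, at 0.429, 0.288 and 0.196 FPKM in sham and 0.128, 0.151 and 0.24 FPKM after injury; neither passed (limma adjusted p = 0.884 and 0.473). Beside this family, the summed level of 18 macrophage markers was 216 to 436 FPKM in sham and 207 to 369 FPKM after injury, and 1 of them, Mrc1, was called, higher. Csf1r, the receptor of Csf1, had a log2 change of 0.05 (limma adjusted p = 0.861).

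Of 71 guidance ligands 1 rose and 3 fell (1.41% higher and 4.2% lower, beside 2.75% and 1.93% of all genes). Sema6a, a membrane-bound semaphorin that acts as ligand and receptor, was at 4.3, 2.7 and 2.36 FPKM in sham and 13.9, 9.41 and 13.4 FPKM after injury and rose with a log2 change of 1.97 (limma adjusted p = 0.00426, SE 0.24), kept in all 6 fits. Jag2, a Notch ligand, Sema7a, a semaphorin that promotes axon growth, and Lgi3, a secreted leucine-rich repeat protein, fell by 0.42, 0.37 and 0.35 on the log2 scale, each kept in 1 of 6. The Sema6a receptors Plxna2 and Plxna4, looked at after the values were seen, had log2 changes of -0.11 and 0.66, and Plxna4 was called.

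Of 178 matrix proteases, inhibitors and matrix proteins, 9 rose and 1 fell (5.06% higher and 0.56% lower, beside 2.75% and 1.93% of all genes). Plat, tissue plasminogen activator, was at 8.22, 11 and 9.54 FPKM in sham and 12.9, 10.9 and 13 FPKM after injury and did not pass (limma adjusted p = 0.114), nor did Plau, the urokinase gene (log2 change 0.33). Plaur, the urokinase receptor, which the class patterns do not hold, rose from 13.7, 8.67 and 7.34 FPKM to 29, 22.4 and 28.7 FPKM, by 1.46 on the log2 scale, kept in 2 of 6. Adamts1, a matrix protease, rose by 0.86 and Fbln5, an elastic fibre protein, by 0.46, both kept in all 6, and the serpins Serpinb1a and Serpina3n by 1.06 and 0.59, kept in 5 and 2. Plau, Plaur and the last 4 were named after their values were seen. Mmp15, a membrane-type metalloprotease, fell by 0.36 on the log2 scale, kept in 3 of 6. The summed level of 10 fibroblast markers was 285 to 347 FPKM in sham and 276 to 419 FPKM after injury, with 0 called. Dcn alone made up most of these sums, at 207 to 270 FPKM in sham and 220 to 325 FPKM after injury. The median log2 change of the 10 markers was 0.06.

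Serpina10, a serpin of the coagulation system, at 0.29, 0.223 and 0.145 FPKM in sham and 0.962, 0.816 and 0.797 FPKM after injury, and Mstn, myostatin, at 0.319, 0.334 and 0.261 FPKM in sham and 0.785, 0.653 and 0.747 FPKM after injury, also rose, and both were low in every library. Their log2 changes were 1.61 and 1.03, kept in 2 and 0 of 6 fits. Without aged sham replicate 1, 41 secreted factors were called, 23 higher and 18 lower, of which 26 were among the 30. The count was 16 or 11 without sham replicates 2 or 3, and 14 or 13 without injury replicates 1 or 3.

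Of the 453 receptors, 17 rose and 23 fell. Of 22 receptors for neurotrophins, the GDNF family and gp130 cytokines, Gfra1 alone passed (4.5% higher, beside 2.75% of all genes). Gfra1, the co-receptor of glial cell line-derived neurotrophic factor, was at 38.9, 34.6 and 34 FPKM in sham and 71.2, 54.2 and 65.7 FPKM after injury and rose with a log2 change of 0.82 (limma adjusted p = 0.00428, SE 0.10), kept in all 6 fits. Ret, its signalling partner, was at 105, 106 and 113 FPKM in sham and 145, 125 and 125 FPKM after injury; the groups did not overlap but it did not pass (limma adjusted p = 0.0709). Gfra3, the artemin co-receptor, had a log2 change of 0.14, Il6st, the shared subunit gp130, of 0.23, Lifr of 0.04 and Osmr of 0.17, and none passed (limma adjusted p = 0.372, 0.125, 0.9 and 0.43).

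Among 69 receptors of the growth factor tyrosine kinase and TGF-beta families, Acvr1 alone passed (1.45% higher, beside 2.75% of all genes). Acvr1, a type I receptor for bone morphogenetic proteins, was at 3.99, 4.01 and 4.42 FPKM in sham and 8.05, 6.89 and 7.42 FPKM after injury and rose with a log2 change of 0.83 (limma adjusted p = 0.00372, SE 0.095), kept in all 6 fits. Of 78 cytokine, TNF, Toll-like and chemokine receptors, 3 rose (3.85%, beside 2.75% higher over all genes). Tnfrsf12a, the receptor of the cytokine TWEAK, was at 18.8, 11.4 and 12.2 FPKM in sham and 32.6, 24.9 and 31.6 FPKM after injury and rose with a log2 change of 1.09 (limma adjusted p = 0.0143, SE 0.19), kept in 2 of 6. Il1r1 and Il4ra, receptors of interleukins named after their values were seen, rose by 0.76 and 0.64 on the log2 scale, kept in 5 and 2 of 6.

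Of 87 axon guidance and adhesion receptors, 5 rose and 4 fell (5.75% higher and 4.6% lower, beside 2.75% and 1.93% of all genes). Flrt3, a leucine-rich repeat adhesion protein of growing axons, was at 9.32, 5.67 and 5.25 FPKM in sham and 31.9, 25.4 and 28.8 FPKM after injury. The injury libraries lay far above every sham library, and it rose with a log2 change of 2.11 (limma adjusted p = 0.00372, SE 0.23), kept in all 6 fits. Itga7, an integrin subunit that binds laminin, was at 60.7, 42.4 and 47.9 FPKM in sham and 117, 92.5 and 111 FPKM after injury and rose with a log2 change of 1.09 (limma adjusted p = 0.00718, SE 0.15), and its partner Itgb1, named after its values were seen, rose by 0.42 on the log2 scale, from 98.4, 99 and 96.5 FPKM to 131, 128 and 135 FPKM. Both were kept in all 6 fits.

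Lingo1, Rtn4rl1 and Unc5b, which take part in signals that restrain or repel axons, were among the falls of that family. Lingo1, a partner of the Nogo receptor, was at 19.1, 18.5 and 19.4 FPKM in sham and 12.9, 11.4 and 12.8 FPKM after injury and fell with a log2 change of -0.62 (limma adjusted p = 0.00426, SE 0.076). Rtn4rl1, a relative of the Nogo receptor named after its values were seen, fell by 0.49 on the log2 scale, from 29.5, 32 and 31.1 FPKM to 22.8, 22.1 and 20.8 FPKM. Rtn4r, the Nogo receptor itself, had a log2 change of -0.34 and did not pass (limma adjusted p = 0.0769). Unc5b, a netrin receptor that mediates repulsion, was at 2.43, 2.34 and 2.54 FPKM in sham and 1.32, 1.58 and 1.26 FPKM after injury and fell with a log2 change of -0.77 (limma adjusted p = 0.00907, SE 0.12). Lingo1, Rtn4rl1 and Unc5b kept their calls in all 6 fits. The remaining fall of the family was Plxnd1, by 0.44 on the log2 scale, kept in 2 of 6. Plxna4, a receptor of the semaphorin Sema6a, and Ptpro, both of the same family, went the other way. They rose by 0.66 and 0.67, kept in 4 and 1 of 6. These 3 were named after their values were seen.

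Of 76 opioid, peptide and monoamine G protein-coupled receptors, 11 fell and 4 rose (14.5% lower, beside 1.93% of all genes). Oprl1, the nociceptin receptor, was at 7.89, 7.49 and 7.67 FPKM in sham and 3.82, 4.46 and 4.39 FPKM after injury, and fell with a log2 change of -0.85 (limma adjusted p = 0.00372, SE 0.081). Adra2c, an inhibitory adrenergic receptor, was at 5.71, 5.81 and 5.66 FPKM in sham and 3.37, 3.06 and 3.31 FPKM after injury and fell with a log2 change of -0.80 (limma adjusted p = 0.00372, SE 0.077). Sstr1, a somatostatin receptor, was at 1.86, 1.58 and 1.67 FPKM in sham and 0.666, 0.82 and 0.744 FPKM after injury and fell with a log2 change of -1.10 (limma adjusted p = 0.0103, SE 0.17). In these 3 receptors the libraries within each group were close together, and the calls were kept in all 6 fits.

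Opioid, muscarinic and serotonin receptors were among the smaller falls of this family. Oprd1, the delta opioid receptor, fell by 0.62 on the log2 scale, from 3.98, 4.62 and 4.58 FPKM to 2.45, 3.03 and 3.01 FPKM, kept in 1 of 6 fits. Chrm2, a muscarinic acetylcholine receptor, fell by 0.58 (kept in 1 of 6), and Htr7, a serotonin receptor, by 0.55 (kept in 2). Sstr2, named after its values were seen, fell by 0.54, kept in 4. Oprm1, the mu opioid receptor and target of morphine, was at 1.98, 2.25 and 1.94 FPKM in sham and 1.92, 1.73 and 1.86 FPKM after injury and did not pass (limma adjusted p = 0.592).

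The 4 receptors of this family that rose bind peptides or serotonin. Npy1r, a receptor of neuropeptide Y, was at 14.4, 13.3 and 11.7 FPKM in sham and 24.2, 24.2 and 27.9 FPKM after injury and rose with a log2 change of 0.95 (limma adjusted p = 0.00372, SE 0.10), kept in all 6 fits. Cckbr, a cholecystokinin receptor, was at 1.43, 0.42 and 0.364 FPKM in sham and 3.21, 2.76 and 3.09 FPKM after injury, with sham replicate 1 above the other two sham libraries, and rose with a log2 change of 2.12 (limma adjusted p = 0.0418, SE 0.49), kept in 1 of 6. Bdkrb2, a bradykinin receptor, rose by 0.97 on the log2 scale (kept in 2), and Htr1f, a serotonin receptor named after its values were seen, by 0.72 (kept in 1). Npy2r, the other main neuropeptide Y receptor of these neurons, and Galr1, a galanin receptor, had log2 changes of 0.23 and -0.14 and did not pass (limma adjusted p = 0.262 and 0.815).

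Of 72 orphan and adhesion G protein-coupled receptors, 2 rose and 6 fell (2.78% higher and 8.33% lower, beside 2.75% and 1.93% of all genes). Gpr151, an orphan receptor of sensory neurons, had the largest rise among the receptors called. It was at 7.75, 2.36 and 1.76 FPKM in the aged sham libraries, 21.1, 13.4 and 16.5 FPKM after injury and 1.44, 3.3 and 1.76 FPKM in young sham. Sham replicate 1 again stood between the groups; the gene rose with a log2 change of 2.35 (limma adjusted p = 0.0295, SE 0.49), kept in 1 of 6 fits, and the change was 2.98 without that library. Gpr85, another orphan receptor named after its values were seen, rose by 0.67 on the log2 scale, kept in all 6. Of 49 receptors for purines, lipids and proteases and of the Mas-related group, 1 rose and 2 fell (2.04% higher and 4.08% lower). Without aged sham replicate 1, 39 receptors were called, 18 higher and 21 lower, of which 36 were among the 40. The count was 19 or 15 without sham replicates 2 or 3, and 14, 25 or 17 without injury replicates 1, 2 or 3.

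**Figure D4:**
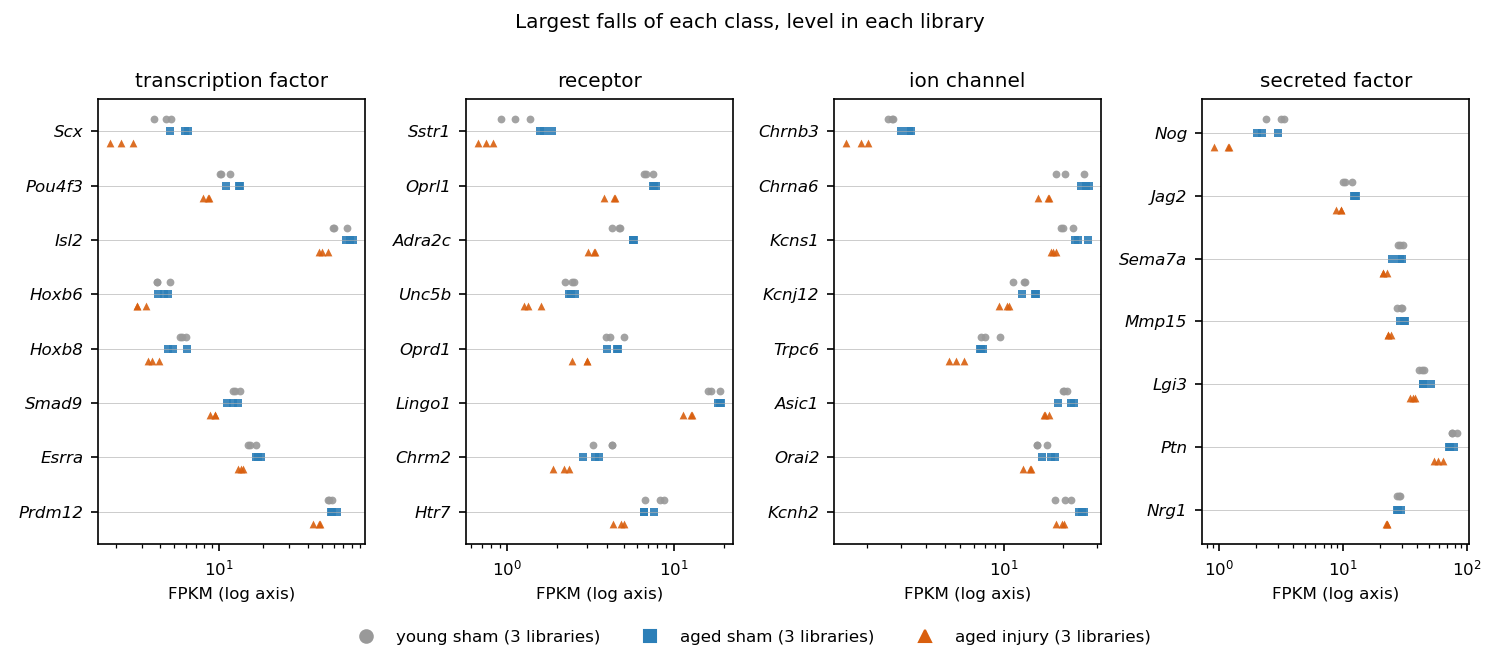
FPKM in each of the 9 libraries (log axis) for the 8 largest falls of each class, or 7 for the secreted factors, among called genes whose mean level in the aged libraries was 1 FPKM or more. The aged injury libraries (triangles) lie below the aged sham libraries (squares) in every gene shown, with narrower gaps than the leading rises.

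Of the 257 ion channels, 8 rose and 12 fell. Of 79 potassium channel genes 6 fell and 0 rose (7.59% lower, beside 1.93% of all genes), and their median log2 change was -0.21, beside -0.01 over all genes. Kcns1, a silent subunit that modifies Kv2 channels, was at 23, 23.8 and 26.8 FPKM in sham and 18.4, 17.9 and 17.4 FPKM after injury and fell with a log2 change of -0.45 (limma adjusted p = 0.0128, SE 0.075), kept in 5 of 6 fits. Kcng1, another silent subunit, was at 0.655, 0.795 and 0.999 FPKM in sham and 0.316, 0.405 and 0.373 FPKM after injury and fell by 0.97 on the log2 scale, kept in 1 of 6. Kcnj12, an inward rectifier, fell by 0.44 and Kcnh2, the ERG channel, by 0.35, kept in 2 and 0. Kcna1 and Kcna2, subunits of the axonal Kv1 channels, and Kcnk2, a two-pore channel, had log2 changes of -0.03, -0.18 and -0.18 and did not pass (limma adjusted p = 0.864, 0.157 and 0.477).

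Of 25 glutamate and nicotinic channel genes, 2 fell (8%, beside 1.93% lower over all genes). Chrnb3, a nicotinic subunit, was at 3, 3.36 and 3.28 FPKM in sham and 1.56, 1.86 and 2.03 FPKM after injury and fell with a log2 change of -0.80 (limma adjusted p = 0.00711, SE 0.11), kept in all 6 fits. Chrna6, which assembles with it, was at 27.3, 26.1 and 24.8 FPKM in sham and 17, 16.9 and 15 FPKM after injury and fell with a log2 change of -0.68 (limma adjusted p = 0.0125, SE 0.11), kept in 5 of 6. Both were separated between the groups without overlap.

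Itpr1, the intracellular channel that releases calcium in response to inositol trisphosphate, had the largest rise among channels at a mean level of 1 FPKM or more. It was at 3.83, 3.46 and 3.03 FPKM in sham and 7.36, 7 and 7.99 FPKM after injury and rose with a log2 change of 1.10 (limma adjusted p = 0.00372, SE 0.11), kept in all 6 fits. Itpr2 and Itpr3, looked at after the values were seen, had log2 changes of 0.14 and -0.08 and did not pass (limma adjusted p = 0.828 and 0.607). Cacna2d1, the auxiliary calcium channel subunit that binds gabapentin, was at 32.8, 31 and 29 FPKM in sham and 47.2, 46.5 and 40.1 FPKM after injury and rose with a log2 change of 0.52 (limma adjusted p = 0.00892, SE 0.078), kept in all 6. It was the only 1 of 25 voltage-gated calcium channel genes that passed (4% higher, beside 2.75% of all genes). Cacna1h, a T-type channel, had a log2 change of -0.11.

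Gabra5, a subunit of GABA-A receptors, was at 3.75, 4.19 and 3.69 FPKM in sham and 7.02, 5.94 and 6.53 FPKM after injury and rose with a log2 change of 0.73 (limma adjusted p = 0.00989, SE 0.11), kept in 5 of 6 fits. Ano6, a calcium-activated lipid scramblase and channel, rose by 0.42 on the log2 scale and Trpv2, a TRP channel of large neurons and other cells, by 0.36, from 19.9, 20.1 and 19 FPKM to 25.2, 24.6 and 26.1 FPKM. Both were kept in all 6. Clic1 and Clic4, chloride intracellular channel proteins, rose by 0.40 and 0.34, each kept in 1 of 6. Mcoln2, a lysosomal TRP channel, was low, at 0.543, 0.354 and 0.331 FPKM in sham and 1.17, 1.44 and 1.2 FPKM after injury, and rose with a log2 change of 1.44 (limma adjusted p = 0.0342, SE 0.31), kept in 1 of 6. Trpc6 and the acid-sensing Asic1 fell by 0.42 and 0.36, kept in 0 and 1.

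The channels best known from pain-sensing neurons did not pass. Scn9a, the sodium channel Nav1.7, was at 31.5, 34 and 33.5 FPKM in sham and 32.7, 35.5 and 29.5 FPKM after injury, and Scn10a, Nav1.8, at 142, 143 and 165 FPKM in sham and 142, 140.4 and 128 FPKM after injury. Scn11a and Scn3a had log2 changes of 0.01 and 0.34. The groups overlapped in Scn9a and Scn10a (limma adjusted p = 0.903 and 0.572). Trpv1, the capsaicin receptor, had a log2 change of 0.08, Trpa1, of irritants, 0.19, Trpm8, of cold, -0.34, P2rx3, of ATP, 0.11, Asic3, of acid, -0.32, and Piezo2, of touch, 0.10. The pacemaker channel Hcn2 had -0.28. The smallest limma adjusted p among these was that of Trpm8, 0.0937; a value that misses the threshold does not show that levels were equal. Of 15 voltage-gated sodium channel genes 1 was called lower (6.67%, beside 1.93% of all genes), Scn1a, named after its values were seen. It was at 14.3, 14.1 and 14.9 FPKM in sham and 12.3, 12.2 and 11.3 FPKM after injury. Scn1a fell with a log2 change of -0.27 (limma adjusted p = 0.0438, SE 0.063), kept in 0 of 6 fits. Without aged sham replicate 1, 15 channels were called, 7 higher and 8 lower, of which 13 were among the 20. The count was 9 or 11 without sham replicates 2 or 3, 7, 11 or 6 without injury replicates 1, 2 or 3, and 12 without young sham replicate 1.

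**Figure D5:**
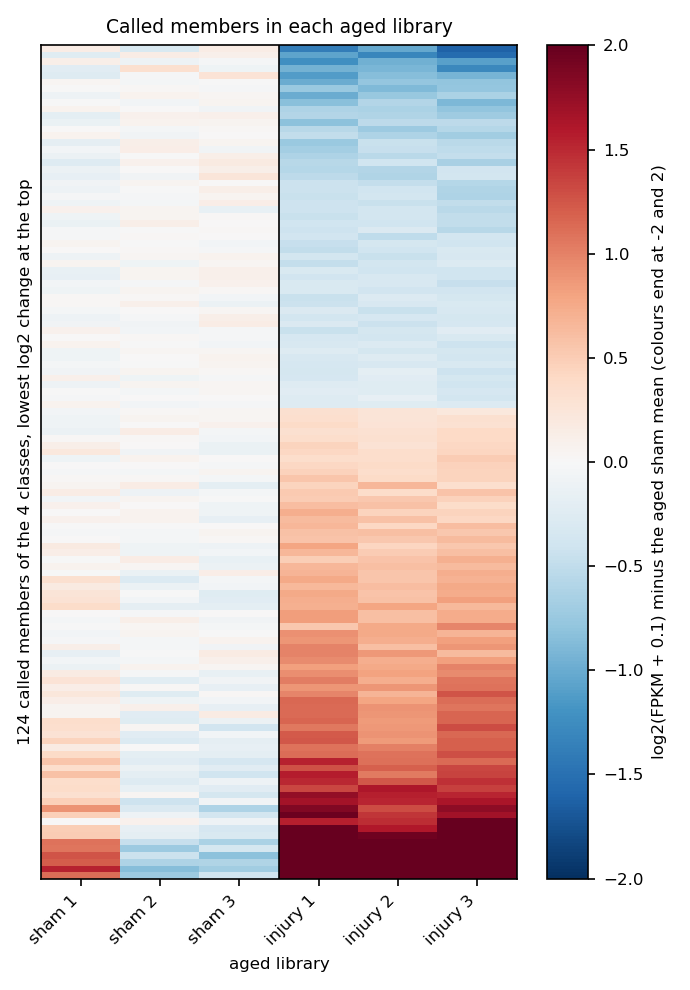
Level of each of the 124 called class members in the 6 aged libraries, as log2(FPKM + 0.1) minus the mean of the aged sham libraries, ordered by log2 change. At the bottom, among the largest rises, aged sham replicate 1 is above the other 2 sham libraries.

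Several cell type markers moved beside these classes. The summed level of 20 neuronal markers was 9642 to 10580 FPKM in sham and 9063 to 10020 FPKM after injury, with Isl1 the only 1 called, so the markers of the tissue were present in every library. The 12 satellite glia markers summed to 1552 to 1700 FPKM and 1295 to 1445 FPKM, with Glul called higher and 0 called lower. Apoe, not called, made up most of these sums, at 1127 to 1136 FPKM in sham and 845 to 984 FPKM after injury. The median log2 change of the 12 satellite glia markers was 0.03. The 14 neutrophil markers summed to 357 to 642 FPKM in sham and 195 to 333 FPKM after injury, with Ngp, Ltf and Camp called lower. The red blood cell list was at 308 to 484 FPKM and 183 to 297 FPKM with Slc4a1 called lower. The skeletal muscle list was at 103 to 389 and 81.8 to 138 FPKM with 0 called. Pvalb alone was at 87.1 to 125 FPKM of the muscle sums in sham and 77.1 to 97.8 FPKM after injury, most of the lowest sums. Acta1, of the same list, was uneven, at 22.5, 5.19 and 84.3 FPKM in sham and 1.17, 10.3 and 6.94 FPKM after injury. The B and plasma cell list was at 152 to 844 FPKM in sham and 400 to 3122 FPKM after injury with 0 called. Igkc was the largest part of these sums, at 68.5 to 528 FPKM in sham and 252 to 2150 FPKM after injury. The part of these cells in the class results was not tested. In 9 of the 34 transcription factors, 13 of the 40 receptors, 5 of the 20 channels and 9 of the 30 secreted factors the call was kept in every fit that left out 1 aged library. Over all genes this was so for 151 of the 758 called.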

How the data were processed

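Ribonucleic acid of whole sciatic ganglia was sequenced in 9 libraries of 3 groups. The deposited values are FPKM per gene and library, per the file headers, and the authors scaled them per library. Among the tools listed, with no role, in the submitters' processing notes are TopHat2 2.0.12 and HTSeq 0.6.0, with build mm10. The scaling factors, annotation release and use of strand were not given in the sources used here, so overlapping, antisense and near-identical genes are uncertain. No column was left out (0 columns).

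Symbols and positions came from GENCODE M21. Of 17601 identifiers over 0.2 FPKM, 16202 were autosomal, 639 sex-linked or mitochondrial and 760 without a position. limma 3.58.1 in R 4.3.3, with a mean-variance trend, was fitted to log2(FPKM + 0.1) of all 9 libraries, contrasting aged injury with aged sham; tests were two-sided with Benjamini-Hochberg adjustment over all 16202 genes, and genes under 0.05 were called. The pseudocount understates changes of low genes. The code was tested on simulated data. FPKM keep only relative depth.

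Classes were 32 families of symbol patterns. The text names, per class, the 8 largest called rises and falls with a mean level of 1 FPKM or more in the aged libraries, 3 of each below it, and 81 fixed genes, of which 75 were tested and 28 called; Vip, Gdnf, Cntf, Stc1 and Reg3b were below the filter and Timp1 was not autosomal. Outside the classes it names 8 rises and 8 falls. Some items are not reported here. Other names were chosen after their values were seen. The promoter rule asked for Atf3, Gal and the leading transcription and secreted factors; Areg and Il6 are shown beside Atf3 in place of the others, and genes of chromosome 18 were not searched. The members and lists were chosen with earlier results of these data known.

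Of 17 marker lists, those not described in the report gave 0 calls for myelinating Schwann cells (12 tested), repair Schwann cells (6), T and NK cells (16), adipocytes (6), central nervous system (3), melanocytes (1) and proliferation (12), and Cldn5, lower, for 12 endothelial genes; the 5 sex-linked genes were not tested. Alternatives were other pseudocounts and filters, other scalings, array weights, the aged libraries alone, a replicate block, and each library left out. Nothing in the labels says that equal replicate numbers mark shared animals or days.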

Additional observations from a re-analysis of the deposited data

How the results depend on the processing

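Pseudocounts of 0.01 and 1, a filter at 1 FPKM and none, equal medians, quantile normalization, array weights and the inclusion of sex-linked and unplaced genes kept the counts of called genes, over all genes and in each class, within 1.5 times. Scaling to equal medians turned the split to 303 higher and 317 lower (48.9% higher, against 58.8%). With the 6 aged libraries alone, 408 genes were called, 26 of them receptors and 12 channels. With 1 library left out, 200 to 777 genes were called, with 11 to 38 transcription factors, 14 to 39 receptors, 6 to 23 ion channels and 11 to 41 secreted factors. No called gene among the 140 named reversed in any alternative, while some that were not called changed sign near 0 (Scn11a from 0.01 to -0.12 and Lifr from 0.04 to -0.03 without aged sham replicate 1, log2); of 2651 values, 2255 stayed on the same side of the threshold, 393 no longer passed and 3 newly passed. The causes were not tested. The replicate block called 314 genes in all, 17 transcription factors, 21 receptors, 9 ion channels and 20 secreted factors. Whether equal numbers pair the samples cannot be told from these data. The correlations of their deviations were 0.297, 0.321 and 0.05 between aged sham and aged injury. With replicates 1 and 2 crossed they were -0.317 and -0.268, and injury replicate 3 was at 0.055 with sham replicate 1. Deviations from the mean of 3 libraries depend on each other, so these values do not decide it. FPKM hold no counts, so counting error could not be given; 3 libraries of 2 mice a group limit the precision.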

Other observations

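Outside the 4 classes, the rule for named genes gave 8 rises and 8 falls at a mean level of 1 FPKM or more. Gadd45a, a stress gene of DNA repair and cell cycle arrest, was at 37.6, 17.5 and 17.3 FPKM in the aged sham libraries and 101, 74.4 and 104 FPKM after injury and rose with a log2 change of 2.03 (limma adjusted p = 0.00738, SE 0.29), and by 2.40 without sham replicate 1. Procr, the receptor of protein C, was at 6.42, 2.91 and 3.25 FPKM in sham and 20.1, 13.3 and 18 FPKM after injury and rose with a log2 change of 2.07 (limma adjusted p = 0.00604, SE 0.28). Mchr1, a receptor of melanin-concentrating hormone that the class patterns do not hold, was at 2.52, 1.93 and 2.06 FPKM in sham and 7.1, 5.04 and 7.11 FPKM after injury and rose with a log2 change of 1.51 (limma adjusted p = 0.00372, SE 0.17). Aim2, a sensor of cytosolic DNA, rose by 1.51 on the log2 scale, from 0.51, 0.563 and 0.599 FPKM to 1.42, 2.02 and 1.92 FPKM, and the membrane protein gene Tmem88b by 2.48. These 5 kept their calls in all 6 fits that left out 1 aged library. Sprr1a, a protein known from regenerating axons, was at 8.19, 4.67 and 6.84 FPKM in sham and 22.5, 16.1 and 23.7 FPKM after injury and rose by 1.66, kept in 0 of 6, and Smim3, a small membrane protein gene, by 1.59, kept in 2. The eighth rise was an antibody light chain segment, and near-identical copies make its level uncertain.

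Ltf, Ngp and Camp, among the falls, are granule genes of neutrophils. Ltf was at 9.46, 12.1 and 14.7 FPKM in sham and 7.45, 4.04 and 4.62 FPKM after injury, Ngp at 32.9, 48 and 53.9 FPKM in sham and 27.5, 18 and 14.8 FPKM after injury, and Camp at 18.2, 31 and 32.3 FPKM in sham and 16.3, 10.7 and 11.9 FPKM after injury. In young sham they were at 4.9 to 6.04, 14.6 to 21.3 and 8.43 to 12.1 FPKM. They fell by 1.18, 1.18 and 1.04 on the log2 scale (limma adjusted p = 0.0206, 0.0333 and 0.0391) and kept their calls in 2, 2 and 1 of 6 fits. Fbp1, an enzyme of glucose synthesis, fell by 1.18, kept in 5 of 6. Scand1, Wfdc21, Apol8 and Klrb1a fell by 1.20, 1.14, 1.09 and 1.08, kept in 0, 1, 2 and 0 of 6.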
